A study of Capra hircus with 12 samples.

Results

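The transition from telogen, the resting phase of the hair cycle, to the onset of early anagen in May was examined in secondary hair follicles (SHFs) of Liaoning cashmere goats. All miRNAs with more than 5 CPM (counts scaled to a library size of 1000000) in at least 2 of the 4 telogen and 2 May libraries were tested, which 292 of the 376 listed miRNAs did. These 292 held 99.98% to 99.99% of the counts of each library, and the other 84 had a TPM (the share of a library's counts, scaled to a sum of 1000000) of at most 10.7 in each of these 6 of the series' 12 libraries. The telogen libraries were 1 of female and 1 of male goats in February and the same in March, and the May libraries were 1 of female and 1 of male goats. The goats were 1.5 years old, no treatment is named, and the follicles were dissected from skin of the scapular region. The study describes several animals of each sex in each month without saying how they entered a library, so p-values measure only the spread between these libraries. A phase was sampled in its own months, so phase and season cannot be told apart.

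The secondary follicle grows the fine underhair, cashmere, and is renewed every year. In telogen the follicle rests with its stem cells in the bulge and germ, and at anagen onset these cells divide and rebuild the lower follicle around the dermal papilla. miRNAs are short RNAs that guide Argonaute proteins to partly complementary messenger RNAs and lower their stability or translation, and several of them, such as miR-203, miR-205, miR-31 and miR-214, are known for roles in skin and follicle cells.

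Depth was 4133390 to 5788032 counts per library in telogen, 4136374 in the female and 3135292 in the male May library. At this depth 3 counts correspond to a TPM of 0.518 to 0.957 in the 6 libraries. miRNAs of epithelium and of mesenchyme, as follicles should hold, were abundant in every library, with summed TPM of 57973 to 96872 for 7 epidermal miRNAs led by miR-203 and of 123496 to 146840 for 9 mesenchymal ones led by miR-143-3p, while miR-205 was not analysed here. No 2 of the 6 libraries agreed within sampling noise. In whole follicles, fewer cells of a type and less RNA per cell cannot be told apart. Members of the miR-200, miR-199, miR-30, miR-29, miR-17 and let-7 families are nearly identical and may share reads, and how such reads were assigned is not stated.

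From telogen to May, 6 miRNAs fell and 1 rose by at least 2-fold with an adjusted p under 0.05 (quasi-likelihood test of edgeR, counts scaled by TMM, all 12 libraries in 1 fit). These 7 calls are 2.4% of the miRNAs tested, 2.05% for decreases and 0.342% for increases. Those that fell were miR-29b-3p, both arms of the myeloid miR-223, miR-182, miR-215-5p and the unnamed miRNA listed as novel_704, and the miRNA that rose was miR-345-3p. Another 7 miRNAs rose by less than 2-fold with an adjusted p under 0.05, among them miR-17-5p, miR-93-5p and both miR-125 miRNAs, which makes 14 past this threshold (4.79%). In all 14 the telogen and May libraries did not overlap in TMM-normalized CPM, as in 36% of all miRNAs tested, or in TPM, as in 37.7% (26% for higher levels in May). Over all 292 miRNAs the log2 fold change was above 0 in 159 and below 0 in 133, with a median of 0.06, and 21 changed by at least 2-fold. An unadjusted p under 0.05 was reached by 83 (28.4%), 50 higher and 33 lower in May.

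**Figure D1:**
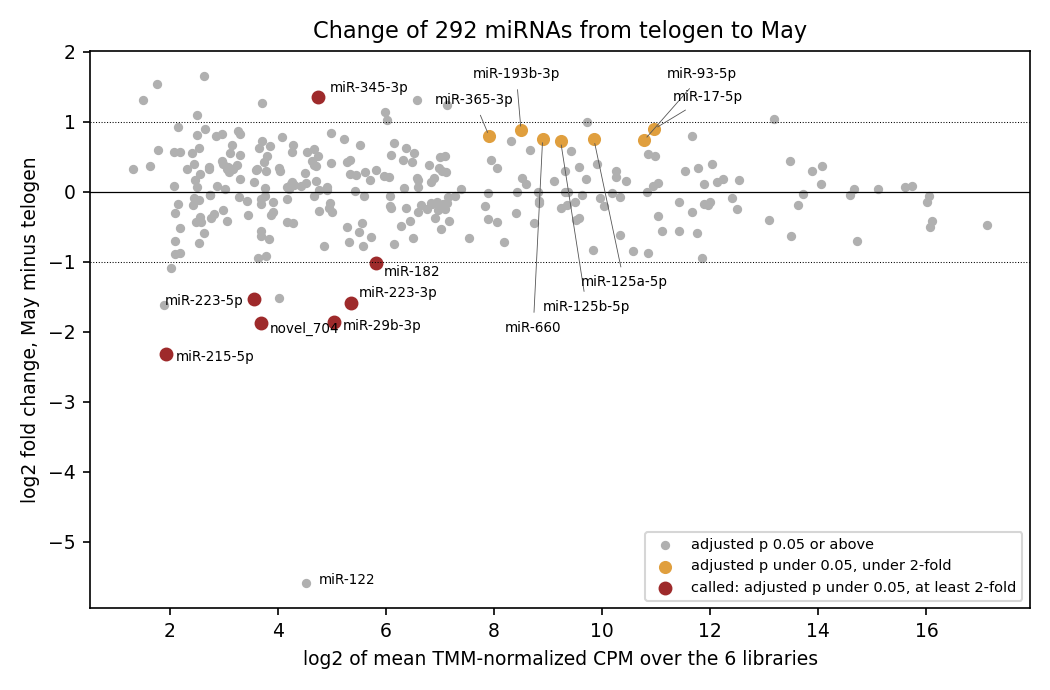
Log2 fold change from telogen to May against the log2 of the mean TMM-normalized CPM, 1 point per tested miRNA (292). The 6 called decreases sit at low to middle levels, and the 7 increases with an adjusted p under 0.05 but under 2-fold sit at higher levels.

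miR-29b-3p, a member of a family known to restrain collagen and other matrix genes, had a TPM of 58.7 and 36.7 in the female and male February libraries, 62.8 and 26.9 in those of March, and 16.4 and 12.4 in those of May. Both May libraries were below all 4 telogen libraries, and within telogen both female libraries were above both male ones. Telogen averaged 46.3 ± 17.3 (SD, n = 4) and May 14.4 ± 2.83 (SD, n = 2), with a log2 fold change of -1.86 (SE 0.40, adjusted p = 0.0180) or 3.63-fold lower. The other arm, miR-29b-5p, was at 3.06 ± 1.57 and 4.42 ± 1.28, with overlapping groups and a log2 fold change of 0.36 (adjusted p = 0.687). Of the 5 tested miRNAs of the miR-29 family, 1 was called, where 2.4% of all tested were called. Of the 5, 4 were below 0, with a median log2 fold change of -0.57. This median was -0.30 without the female March library, -1.03 with the female telogen libraries only (3 called, 19.5% of all tested) and -0.02 with the male telogen libraries only. Telogen libraries of a single sex were set against May libraries of both, so sex enters the change. Compared within females the median was -0.85, and within males -0.15.

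miR-223-3p, which marks neutrophils and other myeloid cells, had a TPM of 43.7 (female) and 95.7 (male) in February, 47.7 and 46.0 in March, and 27.6 and 14.7 in May. Its log2 fold change was -1.59 (SE 0.42, adjusted p = 0.0488), and the male February library alone stood well above the other telogen libraries. The passenger arm miR-223-5p moved from 10.2 and 25.9 in February and 14.5 and 17.2 in March to 6.29 and 6.38 in May (log2 fold change -1.54, SE 0.39, adjusted p = 0.0488). For both arms the telogen and May libraries did not overlap. The other leukocyte miRNAs tested were not called, at -0.44 for miR-155-5p, -0.26 for miR-150 and -0.05 for miR-146a. Thus 2 of 5 were called, both arms of 1 precursor, where 2.4% of all tested were called, and miR-142 was not analysed here. The summed TPM of the 5 was 1073 to 1768 in telogen and 1307 to 1418 in May, a range that overlapped, and the part of leukocyte content in the result was not tested.

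miR-182 belongs to a polycistron of sensory epithelia and is also expressed in follicle epithelium. Its TPM was 69.1 (female) and 63.97 (male) in February, 97.8 and 66.0 in March, and 50.3 and 31.3 in May, a log2 fold change of -1.02 (SE 0.26, adjusted p = 0.0488) that lies just past the 2-fold limit. The female March library stood above the other telogen libraries, which lay within 63.97 to 69.1. Of its neighbours in the genome, miR-96 was at -0.74 (adjusted p = 0.226) and miR-183, the most abundant of the 3 with 615 to 756 TPM in every library, at -0.24 (adjusted p = 0.28), and neither was called.

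miR-215-5p, known from intestine, liver and kidney, was rare, with a TPM of 3.11 (female) and 8.79 (male) in February, 3.73 and 7.98 in March, and 1.45 and 0.96 in May, where it rested on 6 and 3 counts. Telogen males were above telogen females, and May was lowest, with a log2 fold change of -2.32 (SE 0.61, adjusted p = 0.0488). miR-215-5p passed the filter of 5 CPM only through the male telogen libraries, so the filter itself favours a decrease in May. Its genomic neighbour miR-194 was at -0.01. novel_704 had a TPM of 19.4 and 23.9 in February, 10.2 and 22.5 in March, and 7.25 and 3.83 in May, with a log2 fold change of -1.87 (SE 0.40, adjusted p = 0.0180). Its lowest telogen library, female March, was the closest to the female May library.

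The increase was that of miR-345-3p, with a TPM of 16.6 (female) and 21.2 (male) in February, 13.8 and 28.1 in March, and 55.9 and 53.9 in May. The May libraries lay close together and above every telogen library, and the log2 fold change was 1.35 (SE 0.31, adjusted p = 0.0281), 2.55-fold higher in May. The other arm of the precursor, miR-345-5p, was at 8.81 to 15.5 in telogen and at 24.9 (female) and 14.4 (male) in May, and was not called (0.42, adjusted p = 0.367).

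**Figure D2:**
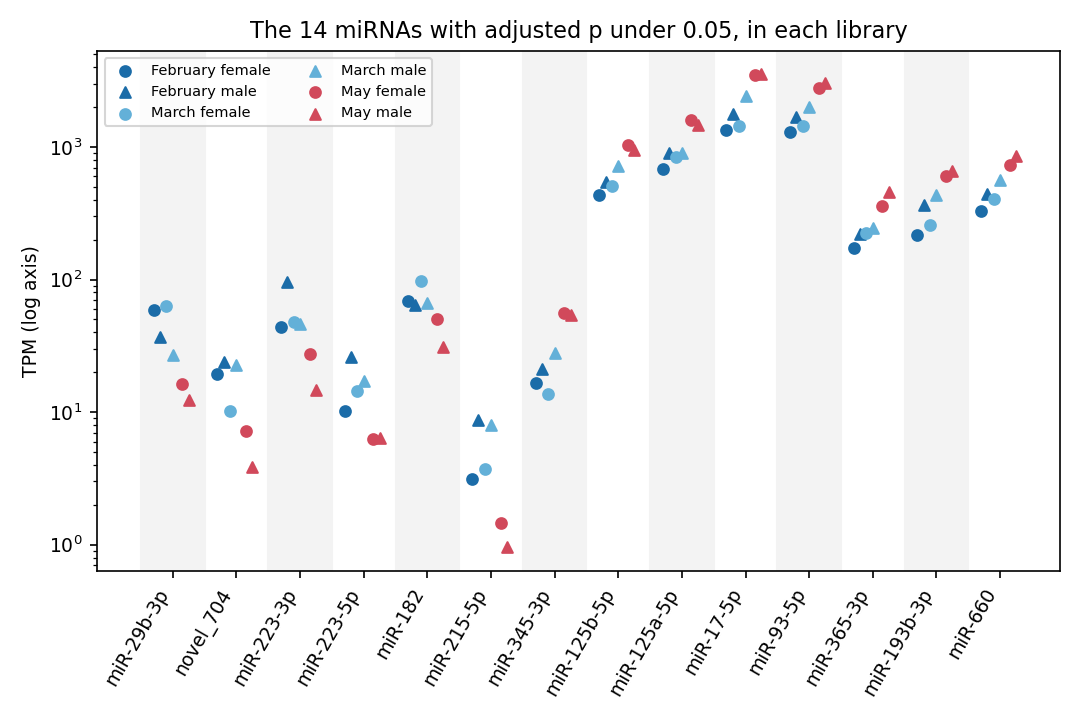
TPM on a log axis in each of the 4 telogen libraries (blue) and 2 May libraries (red) for the 14 miRNAs with an adjusted p under 0.05, circles for female and triangles for male libraries. In all 14 the May libraries lie outside the telogen range, as do those of 37.7% of all tested miRNAs, and for most increases the male March library is the telogen library closest to May.

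The increases of less than 2-fold were found in abundant miRNAs. miR-17-5p, a member of the miR-17-92 cluster that is known to promote proliferation, had a TPM of 1333 (female) and 1780 (male) in February, 1439 and 2414 in March, and 3481 and 3533 in May. Its log2 fold change was 0.89 (SE 0.18, adjusted p = 0.0174). miR-93-5p, which shares the seed of miR-17-5p, rose from 1605 ± 319 (SD, n = 4) to 2915 ± 194 (SD, n = 2), or 0.74 (SE 0.14, adjusted p = 0.0148). In both, the male March library was the highest of telogen and still below May.

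miR-125b-5p, which is known to keep skin stem cells from differentiating, had a TPM of 438 (female) and 545 (male) in February, 509 and 714 in March, and 1045 and 943 in May (log2 fold change 0.73, SE 0.13, adjusted p = 0.0148). For its relative miR-125a-5p the telogen libraries lay between 679 and 907 and the May libraries at 1605 and 1467 (0.75, SE 0.15, adjusted p = 0.0174). Both rose in the female and in the male libraries, by 0.89 and 0.56 for miR-125b-5p and by 0.84 and 0.66 for miR-125a-5p. The log2 fold changes of miR-365-3p, miR-660 and miR-193b-3p were 0.79, 0.76 and 0.88, with adjusted p from 0.0148 to 0.0467. In each of these miRNAs the female February library was the lowest of the 6.

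Just outside the threshold lay miR-99a-5p, with 28496 to 40070 TPM in telogen and 22968 to 23540 in May (log2 fold change -0.70, adjusted p = 0.0524), and miR-214-3p, known for restraining Wnt signalling in skin. For the latter the telogen libraries were within 63.1 to 69.5 and the May libraries at 50.5 and 42.7 (-0.64, adjusted p = 0.0525). miR-135a was at 17.9 to 31.8 in telogen and at 11.1 and 6.38 in May (-1.51, adjusted p = 0.0571).

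The most abundant miRNAs differed less. miR-26a-5p, the highest in every library, had a TPM of 191721 (female) and 162143 (male) in February, 194145 and 135136 in March, and 141194 and 134222 in May. In TPM the male March library lay between the May libraries and the groups overlapped. After TMM, the May mean minus male March was 0.10 in log2. The log2 fold change of miR-26a-5p was -0.48 (SE 0.22, adjusted p = 0.181). miR-143-3p, a miRNA of mesenchymal cells, was also lowest in telogen in the male March library, with 67084, against 83255 to 92526 in the other telogen libraries and 70711 and 69049 in May (-0.42, adjusted p = 0.157). miR-148a-3p was at -0.51 (adjusted p = 0.318), and miR-27b-3p, miR-21-5p, miR-203, let-7f-5p, let-7g-5p and let-7a-5p were within 0.14 of 0 in either direction, with adjusted p of 0.641 or more. The 10 miRNAs with the highest mean TPM over the 6 libraries took 68.6% to 72.5% of the counts in telogen, and 66.8% and 65.0% in May.

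The telogen libraries moved the result in different directions. Without the male March library 28 miRNAs were called (9.59%), 13 higher and 15 lower in May, and these included all 7 calls made with every library. Without the male February library only miR-29b-3p was called (0.342%). Leaving out the female February library gave 5 calls (1.71%, all lower in May), and leaving out the female March library gave 7 (2.4%), 6 of them shared with the fit of all libraries. miR-29b-3p was the only miRNA called in all 4 of these fits, with log2 fold changes of -1.66 to -2.15. The May group was the smaller, and without its female or its male library no miRNA was called by edgeR, while 52 and 40 miRNAs had an unadjusted p under 0.05. With the 6 libraries fitted alone no miRNA was called either (67 with an unadjusted p under 0.05), so the calls rest on the spread shared with the September and catagen libraries.

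**Figure D3:**
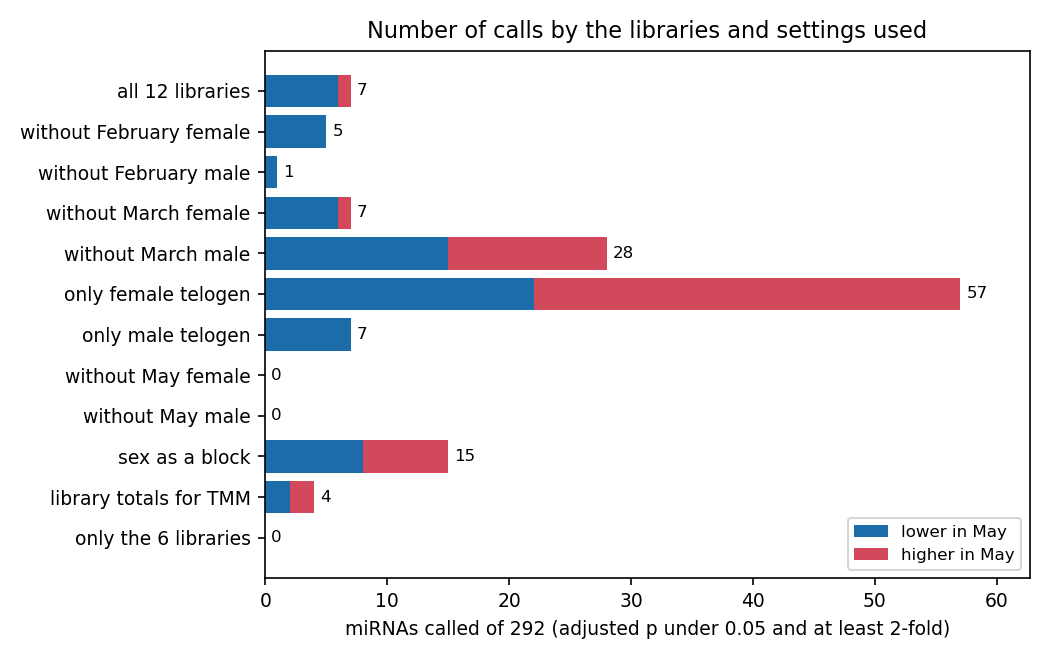
Number of miRNAs called of 292, split into lower (blue) and higher (red) in May, with all 12 libraries (7), without each telogen or May library, with female or male telogen libraries only, with sex as a block, with library totals in place of TMM, and with the 6 libraries alone. The bars range from 0 calls to 57 with the female telogen libraries only.

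Of the 28 miRNAs called without the male March library, it was the telogen library nearest to May in 23, against 42.1% of all 292, a count that the choice of the library left out partly fixes. Among the fits without a telogen library, 20 of the 28 were called in that fit alone. The 13 that were higher in May (4.45% of all tested) included 7 of the 33 tested miRNAs listed for the imprinted DLK1-DIO3 region, a large miRNA cluster that is transcribed from the maternal chromosome and is known for expression in embryonic and stem cells, and also miR-3958-3p, which is not on that list but is a neighbour in the same genomic cluster. miR-410-3p had a TPM of 1.55 (female) and 3.15 (male) in February, 2.36 and 9.92 in March, and 13.5 and 14.03 in May. Its log2 fold change moved from 1.65 (adjusted p = 0.0571) to 2.28 (adjusted p = 0.000902) without the male March library, whose level was far above the other telogen libraries. miR-494 was at 29.5, 72.5, 31.6 and 168 in telogen in the same order and at 169 and 218 in May, and moved from 1.31 (adjusted p = 0.0927) to 1.87 (adjusted p = 0.0056). miR-409-5p, at 42.6 in the male March library and 29.98 and 26.8 in May, moved from 0.78 to 1.66. Among the 7, miR-369-5p was over 5 TPM only in May, and miR-544-5p, miR-410-3p and miR-412-5p only in May and male March. Without that library these miRNAs pass the filter through May alone, which favours higher levels in May.

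Other miRNAs of this set were miR-146b-5p, known from the control of inflammatory signalling, and miR-708-3p. miR-146b-5p had a TPM of 5699 (female) and 10300 (male) in February, 3259 and 12102 in March, and 15208 and 19164 in May, so that in each month of telogen the male library was nearer to May. It was at 1.04 with all libraries (adjusted p = 0.0789) and at 1.16 without male March (adjusted p = 0.0257). For miR-708-3p both March libraries, at 1559 (female) and 1474 (male), lay between February (2512 and 2199) and May (1335 and 1090), and its log2 fold change moved from -0.84 (adjusted p = 0.0713) to -1.07 (adjusted p = 0.00707). miR-9-5p, a miRNA of neural cells and melanocytes, was at -0.996 (adjusted p = 0.0713) with all libraries and was called at -1.18 without male March, from 63.6 to 93.9 TPM in telogen and 41.3 and 41.1 in May.

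Over the 292 miRNAs, the telogen library closest to the May mean was male March in 123 (42.1%), male February in 84 (28.8%), female March in 48 (16.4%) and female February in 37 (12.7%). The median absolute log2 difference from the May mean was 0.28 for male March, 0.32 for male February, 0.46 for female February and 0.48 for female March. Male March was closer to May than to the mean of the other telogen libraries for 167 miRNAs (57.2%), against 63 (21.6%) for female February. Only 11 miRNAs differed by at least 2-fold between male March and the May mean, and 52 did so for female February. The female and male March libraries differed from each other by a median of 0.44, more than male March from female May (0.27), while both May libraries differed by 0.19. These are descriptions over miRNAs, which are not independent replicates.

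**Figure D4:**
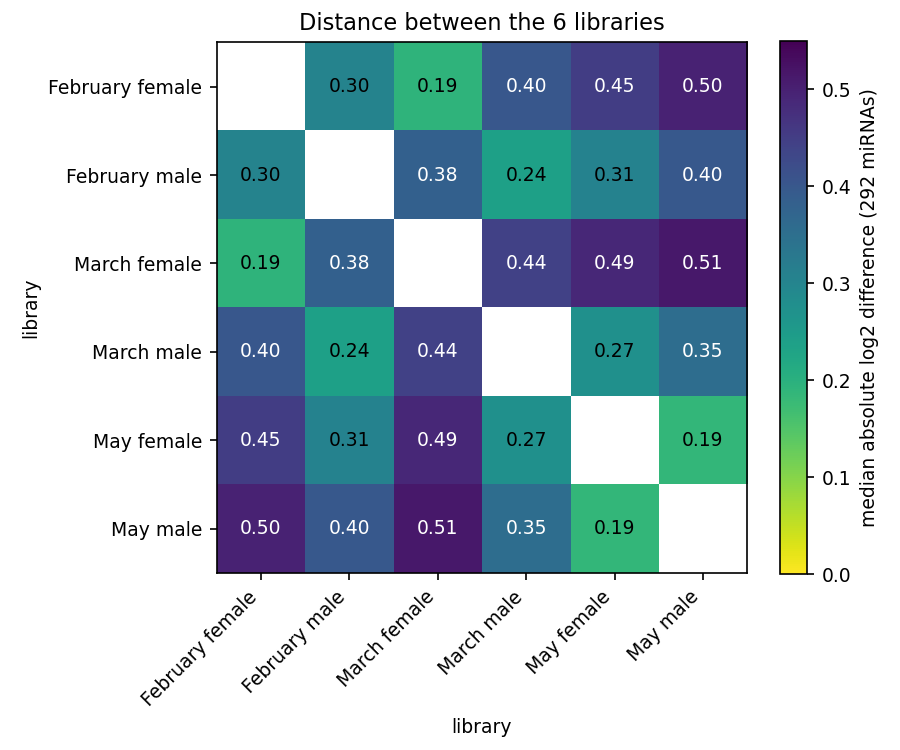
Median absolute log2 difference of TMM-normalized levels over 292 miRNAs between each 2 of the 6 libraries, darker for a larger difference. The female libraries of February and March are close (0.19), and the male March library is nearer to both male February (0.24) and female May (0.27) than to female March (0.44).

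Within telogen, miRNAs were called between the sexes and not between the months. Between the female and male telogen libraries 29 miRNAs were called (9.93%), 22 higher in the males, and between February and March none was called by edgeR or DESeq2 (14 with an unadjusted p under 0.05 in edgeR). These counts are not directly comparable. The month fit takes its spread from the sexes within a month, and the sex fit from the months within a phase. miR-122, the main miRNA of liver cells, differed the most, with a TPM of 73.2 and 87.3 in the male February and March libraries but 2.25 and 1.57 in the female ones. It was at 0.48 and 1.28 in May, on 2 and 4 counts, and its log2 fold change from telogen to May of -5.58 (SE 1.65, adjusted p = 0.0693) missed the threshold, while with sex as a block it was called at -4.96 (SE 1.27, adjusted p = 0.0310). Like miR-215-5p, miR-122 passed the filter only through the male telogen libraries, which favours a decrease in May. miR-192-5p, which is also abundant in liver, was at 398 and 411 in the female and 356 and 431 in the male telogen libraries and at 368 and 348 in May. The summed TPM of the 7 listed miRNAs of liver, gut and pancreas, 6 of them tested, was 792 to 933 in telogen and 787 to 855 in May, and the part of such tissue in the results was not tested. miR-146a was lower in the telogen males (log2 fold change -1.08, SE 0.20, adjusted p = 0.0124), and its change from telogen to May of -0.05 covered a difference of -0.38 in the female and 0.47 in the male libraries.

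The number of calls depended on which telogen libraries were set against May. The 2 female telogen libraries against both May libraries gave 57 calls (19.5%), 35 higher and 22 lower in May, and the 2 male telogen libraries gave 7 (2.4%), all lower in May. Called from the male telogen libraries were miR-29b-3p, both arms of miR-223, miR-215-5p, novel_704, miR-122 and miR-335-3p. With each sex compared within itself, 2 telogen libraries against 1 May library, 27 were called in the females (9.25%, 23 higher in May) and 2 in the males (0.685%, miR-122 and miR-215-5p). In the last pair the lone May library is assumed to vary like the other groups, which supply the spread. Where telogen libraries of a single sex were set against May libraries of both, sex enters the change. These 4 comparisons were chosen after the difference between the sexes had been seen. With sex as a block in the fit, 15 miRNAs were called (5.14%), 7 higher and 8 lower in May, among them all 7 of the unblocked fit. The other 8 were miR-122, miR-135a, miR-423-3p and 5 miRNAs of the DLK1-DIO3 region.

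A difference between sexes in the change itself was not detectable by edgeR with 1 May library of each. The interaction called no miRNA there (34 with an unadjusted p under 0.05) and 3 in DESeq2, namely miR-493-5p, novel_120 and miR-211. miR-211, a miRNA of melanocytes, had a TPM of 126 (female) and 64.9 (male) in February, 115 and 67.5 in March, and 46.7 and 136 in May, so that females were above males in telogen and below in May (interaction adjusted p = 0.0928 in edgeR). Of the 292 miRNAs, 201 (68.8%) changed in the same direction in the female and the male libraries, 114 up and 87 down, and all 7 called miRNAs were among them. A change of at least 2-fold was seen for 48 in females and 16 in males, and for 8 in both in the same direction.

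**Figure D5:**
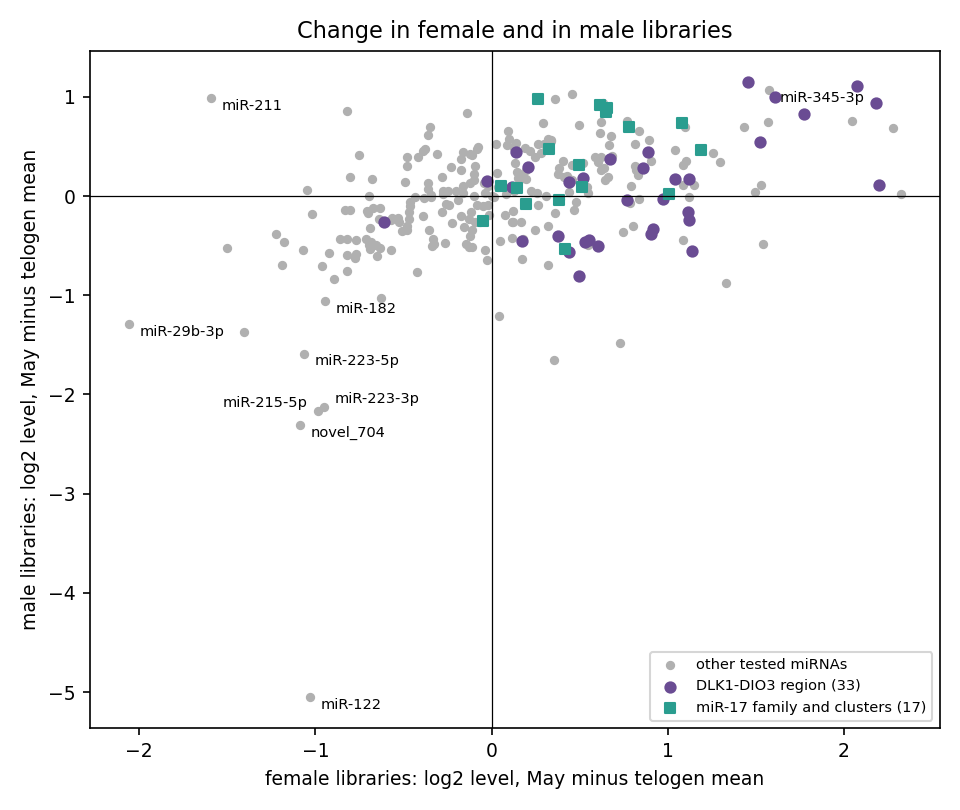
Log2 difference between the May library and the mean of the telogen libraries within females (horizontal) and within males (vertical), 1 point per tested miRNA (292), with the DLK1-DIO3 region in purple and the miR-17 family and clusters in green. The DLK1-DIO3 points lie mainly right of 0 but on both sides of 0 in the males, and miR-122 lies lowest at -1.03 in females and -5.05 in males.

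In the DLK1-DIO3 region the telogen libraries differed across the cluster. For its 33 tested miRNAs the median log2 fold change was 0.30, 25 above and 8 below 0 (median 0.06 over all tested), and none was called in the fit of all libraries. With sex as a block 5 of the 33 were called, namely miR-494, miR-411b-5p, miR-410-3p, miR-544-5p and miR-369-5p, all higher in May (2.4% of all tested were called higher). The likelihood-ratio test of edgeR called 4 and limma-voom 3 of these 5, where 2.4% and 1.37% of all tested were called higher. Of these 5, miR-369-5p passed the filter only through May (6.04 and 5.42 TPM, 0.86 to 3.87 in telogen). In telogen miR-544-5p and miR-410-3p were over 5 TPM only in male March (5.08 and 9.92). For these miRNAs the filter itself favours higher levels in May. The median was 0.11 without the female February and 0.12 without the female March library. The summed TPM of all 45 listed miRNAs of the region, tested or not, was 912 (female) and 1578 (male) in February, 813 and 3058 in March, and 1707 and 1979 in May. The male March library therefore held more than either May library, and both female telogen libraries held less. Between the telogen sexes 13 of the 33 were called, all higher in the males, against 7.53% of all tested. From the female telogen libraries 31 of the 33 were above 0 in May (median 0.97) and 14 were called higher, against 12% of all tested, and from the male telogen libraries 16 (median -0.08, none called). Both sets were compared with May libraries of both sexes, so sex enters the change. Compared within females the median was 0.91, and within males 0.05.

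In the miR-17 family and its clusters most log2 fold changes were above 0, and the number called depended on the telogen libraries. Of the 17 tested, 15 were above 0 (median 0.40), 2 had an adjusted p under 0.05 and none reached 2-fold. In summed TPM of the 20 listed the telogen libraries held 13421 to 21032, highest in male March, and the May libraries 24606 (female) and 24511 (male). The median stayed between 0.23 and 0.49 with the female or the male telogen libraries only, within each sex, and without each telogen library, and was 0.28 to 0.52 under the other scalings. None was called with the male telogen libraries only, 4 with the female telogen libraries only, 2 within the females and 1 without the male March library, all higher in May (12%, 7.88% and 4.45% of all tested were called higher in these 3 fits). All 8 tested arms of the miR-17-92 cluster itself were above 0, from 0.17 for miR-18a-5p to 0.89 for miR-17-5p. miR-92a-3p had a TPM of 1866 (female) and 3193 (male) in February, 2348 and 4440 in March, and 5671 and 5322 in May (0.79, adjusted p = 0.0693). miR-25-3p, of a related cluster, did not share this, with 4095 to 5340 in telogen and 4959 and 4381 in May (-0.15, adjusted p = 0.49). Its rarer other arm, miR-25-5p, was at 0.89 (adjusted p = 0.117). Of the 6 tested arms of this cluster with miR-93 and miR-106b, 5 were above 0.

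Among 18 tested arms of miRNAs known as regulators of the hair cycle or skin, 12 were below 0 (median -0.35), miR-29b-3p was called lower and miR-125b-5p was higher with an adjusted p under 0.05. Their median was -0.57 without the male March library (3 called), -0.62 with the female telogen libraries only (7 called, 6 lower) and -0.18 with the male ones only (1 called), where 9.59%, 19.5% and 2.4% of all tested were called. The fits with telogen of a single sex used May libraries of both, so sex enters the change. Compared within females the median was -0.53, and within males -0.27. miR-218 was at 1462 (female) and 1305 (male) in February, 921 and 965 in March, and 892 and 565 in May (-0.84, adjusted p = 0.0797). miR-24-5p was at -0.95 and miR-22-3p at -0.75, neither past the threshold. In the let-7 family none of 15 was called, and the median of 0.06 changed to -0.03 with RLE and 0.20 with library totals. No member of the miR-30 (9 tested) or miR-200 (5 tested) families had an adjusted p under 0.05, although miR-200a was at 1379 to 1789 TPM in telogen and 1283 and 1032 in May (-0.61, adjusted p = 0.0789). Of the 13 tested arms of the miR-15, miR-16 and miR-34 group, known for restraining the cell cycle, none was called.

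Markers of muscle, erythrocytes and endothelium were not called between telogen and May. The 6 listed muscle arms, 5 of them tested, summed to 1902 to 3614 TPM in telogen, lowest in male March, and to 2113 and 2745 in May. The erythrocyte miR-451-5p and miR-144-5p summed to 27.9 to 115 in telogen, highest in male March, and to 45.9 and 24.6 in May, and both arms of miR-126 of endothelium to 9022 to 12699 and to 9686 and 9177. The male March library thus had the highest erythrocyte and the lowest muscle sum of the 4 telogen libraries, and the part of either in its position near May was not tested.

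By month, May differed from February in 8 miRNAs (2.74%), 2 higher and 6 lower in May, and from March in none by edgeR (50 with an unadjusted p under 0.05) and in 6 by DESeq2. The 8 were miR-151-3p, miR-708-3p, miR-218, miR-223-3p, miR-29b-3p, novel_704, miR-874-3p and miR-410-3p. miR-151-3p was at 3085 (female) and 2472 (male) in February, 1893 and 2063 in March and 1475 and 1414 in May, with log2 fold changes to May of -1.17 from February (adjusted p = 0.0256) and -0.53 from March (adjusted p = 0.299). miR-29b-3p was at -1.95 from February (adjusted p = 0.0336) and at -1.77 from March (adjusted p = 0.135). Whether the changes from February and from March differ is the comparison of February with March, in which no miRNA was called. Without the male March library, March is 1 female library against May libraries of both sexes. March then has no spread of its own and sex enters the change, so that fit is not read here.

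The balance of directions changed with library totals in place of TMM, and also where TMM was kept. Under TMM, 7 of 15 calls were higher in May with the likelihood-ratio test, and 7 of 15 with sex as a block. RLE and upper-quartile scaling called 0.342% of all tested higher, as did the main fit. The TMM factors of the May libraries were 1.21 and 1.23, of male March 1.29, and of the other telogen libraries 0.99 to 1.12. When library totals replaced TMM, the median over the 292 miRNAs moved from 0.06 to 0.19 on the log2 scale, and 4 miRNAs were called (1.37%), 2 higher in May (miR-345-3p and miR-17-5p) and 2 lower (miR-29b-3p and novel_704). With this shift the decreases of miR-223, miR-182 and miR-215-5p kept their direction but missed the threshold.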

How the data were processed

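Small RNA of SHFs was sequenced in 12 libraries from 6 months, each month with a female and a male library, and the 4 telogen (February, March) and 2 May libraries are compared here. The authors trimmed adapters, removed reads with N bases, mapped the rest to CHIR_2.0 and quantified miRNAs with Bowtie 0.12.9 (version per the labels). They deposited a raw count and a TPM for each miRNA and library. The deposited TPM equals the count divided by the library total, scaled to a sum of 1000000, within 0.005, and carries no composition correction. Levels are given as this TPM, and tests were made on the counts.

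The analysis used R 4.3.3 and edgeR 4.0.16 with TMM, glmQLFit and glmQLFTest in 1 fit of 12 libraries with 4 groups (telogen 4, May 2, September 2, catagen 4), with adjustment by Benjamini-Hochberg over the 292 miRNAs with more than 5 CPM in at least 2 of the 6 libraries. A call needs an adjusted p under 0.05 and 2-fold. Months were compared in a fit of 6 months, and sexes in a fit of phase and sex. The SE is the log2 fold change over the square root of F. Log2 levels were taken from CPM after TMM with 1 CPM added, which shrinks the differences of rare miRNAs. Depth was 3135292 to 5788032 counts in the 6 libraries, without molecular identifiers, so that counting error does not cover library preparation. Libraries of a group numbered in accession order are not paired, but each month holds both sexes, which was used as a block.

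Alternatives were RLE, upper-quartile and library-total scaling, DESeq2 1.42.0, edgeR's likelihood-ratio test, limma-voom (limma 3.58.1), other filters and groupings, and each library left out. Named were the called miRNAs, the 8 with the smallest p in each direction, the 10 with the smallest p called only without a telogen library, the 10 most abundant, miRNAs the study names, the other arms, and 2 of each list, while other list members were named after their values were seen. The miRNAs and lists were chosen with earlier results of these data known. Neighbouring genes are from RefSeq of goat assembly ARS1.2, another build, so no coordinates are given. Mature sequences were not used here. The tests were checked on simulated counts with known changes, drawn with the spread fitted here. For telogen to May these counts held no sex difference and no deviating library. The check therefore does not bear on calls that depend on such libraries.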

Additional observations from a re-analysis of the deposited data

Results flagged for a closer look

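Among 62 named miRNAs, 7 had a telogen library that stood apart from the other 3 by more than Dixon's 95% critical value for 4 samples. The nominal rate of about 1 in 20 assumes independent groups. These miRNAs share the same 4 libraries, and some were named because their call changed without 1 telogen library. That rate is therefore no baseline for the 7 flags. Of the 7, 3 were in the male March library. In that library miR-378-3p had a TPM of 2881 (2354 to 2404 in the others), miR-34a of 165 (116 to 120) and miR-1, a muscle miRNA, of 1627 (2917 to 3168). The female March library was high in miR-182, with 97.8 (63.97 to 69.1), and in miR-30a-3p, with 69.5 (57.5 to 59.2). The male February library was high in miR-223-3p, with 95.7 (43.7 to 47.7), and the female February library was low in miR-345-5p, with 8.81 (14.4 to 15.5). For miR-34a and miR-1 the male March TPM lay toward or beyond the May libraries (182 and 175, and 1752 and 2339), and for miR-378-3p away from them (2197 and 2128). The flags used TPM without composition correction, and male March had the highest TMM factor of the 6 libraries (1.29). After TMM, the May mean minus male March was -0.34 in log2 for miR-378-3p, inside the range of the other telogen libraries (-0.42 to -0.27). It was 0.19 for miR-34a (0.30 to 0.45 in the others) and 0.39 for miR-1 (-0.87 to -0.66). The cause was not tested.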

How the results depend on the processing

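The calls rest on 2 May libraries and on the spread shared with September and catagen, and depth limits only the rarest miRNAs. From telogen to May, 7 miRNAs were called (1 higher, 6 lower). The number was 4 (2 and 2) with library totals, 11 (10 lower) with upper-quartile scaling, 13 (2 and 11) with DESeq2, 15 (7 higher) with the likelihood-ratio test and 15 (7 and 8) with sex as a replicate block. It was 0 with the 6 libraries alone (0 higher, 0 lower), 2 (1 lower) above 50 CPM and 14 (8 higher) with no minimum fold. limma-voom gave 4 higher, and 6 month groups 2 higher and 3 lower. Telogen libraries of females only gave 57 (35 and 22) and of males only 0 higher, and within sexes 27 (23 higher) and 2 (0 and 2) were called. Leaving out single libraries gave 0 to 28 calls, 0 to 13 higher and 0 to 15 lower.

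From February to May, with 8 calls (2 and 6), RLE gave 1 higher, library totals 7 higher and 3 lower, and DESeq2 18 (5 and 13), and leave-one-out fits gave 0 to 8 calls, 0 higher and 0 to 8 lower. From March to May, with 0 calls, DESeq2 gave 6 (1 and 5), and leave-one-out fits 0 to 33, 0 to 22 higher and 0 to 11 lower. Each of these leave-one-out fits has 1 library in a month, without a spread of its own, and sex enters the change. Between the telogen sexes (22 higher in males, 7 lower), library totals gave 36 and 1, and DESeq2 4 lower. DESeq2 called 3 in the sex difference, against 0. Over 17 settings that leave no library out singly, miR-29b-3p kept its call in 15, miR-345-3p in 14 and miR-182 in 10, novel_704 in 12 of 15, miR-223-3p in 11 of 16, miR-223-5p in 9 of 16 and miR-215-5p in 9 of 15. Of 12 fits without 1 library, miR-29b-3p kept it in 10, novel_704 in 9, miR-345-3p in 7, miR-223-5p and miR-215-5p in 5, miR-223-3p in 3 and miR-182 in 1.

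Log2 fold changes of miRNAs that were not called changed sign as follows. With RLE, upper-quartile and DESeq2, miR-203 was at -0.015, -0.056 and -0.015, let-7f-5p at -0.033, -0.062 and -0.033, let-7g-5p at -0.059, -0.082 and -0.059, and let-7a-5p at -0.059, -0.087 and -0.059. With library totals miR-27b-3p was at 0.063, miR-21-5p at 0.0056 and miR-146a at 0.13. miR-146a was also at 0.048 with limma-voom, 0.0051 above 50 CPM and 0.0032 with the sex block. let-7g-5p and let-7a-5p were at -0.0094 and -0.010 with the 6 libraries alone and at -0.024 and -0.023 with the filter over 12 libraries. With female telogen only, let-7g-5p was at -0.075, let-7a-5p at -0.044, miR-29b-5p at -0.18, miR-126-5p at -0.22 and miR-144-5p at 0.25, and with male telogen only miR-21-5p at 0.12, miR-203 at -0.084, miR-146a at 0.59 and miR-211 at 0.42. Within females miR-27b-3p was at 0.12, let-7g-5p at -0.10, let-7a-5p at -0.023, miR-126-5p at -0.10, miR-451-5p at 0.34 and miR-144-5p at 0.72. Within males miR-21-5p was at 0.044, miR-203 at -0.17, miR-146a at 0.47, miR-345-5p at -0.081 and miR-211 at 0.999. Over the leave-one-out fits, miR-21-5p ranged from -0.32 to 0.029, miR-203 from -0.080 to 0.10, let-7f-5p from -0.057 to 0.090, let-7g-5p from -0.12 to 0.055, let-7a-5p from -0.075 to 0.060, miR-146a from -0.28 to 0.15, miR-29b-5p from -0.070 to 0.79, miR-345-5p from -0.13 to 0.70, miR-126-5p from -0.057 to 0.39, miR-144-5p from -1.28 to 0.0025 and miR-211 from -1.23 to 0.27. The cause of these changes was not tested.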

Other observations

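Precursors whose arms were both tested allow a comparison of arms. Of 78 such precursors, 41 (52.6%) had both arms on the same side of 0 from telogen to May, 21 higher and 20 lower, and across precursors, which are not replicates, the log2 fold changes of the arms had a Pearson r of 0.35. Both arms of miR-223 were called, whereas of miR-29b, miR-345 and miR-125b only a single arm had an adjusted p under 0.05.

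Neighbouring genes in places lay on both sides of 0. let-7c-5p was at 0.13 and its neighbour miR-99a-5p at -0.70, and in the cluster of miR-199a and miR-214 miR-199a-3p was at 0.37 (13550 to 23088 TPM in telogen, 24306 and 25097 in May, adjusted p = 0.121), and miR-214-3p at -0.64. In the cluster of miR-143 and miR-145, miR-143-3p was at -0.42 and miR-145-5p at 0.11. miR-199b-5p was at 9264 to 13099 TPM in telogen and at 16152 and 17677 in May (0.44, adjusted p = 0.0693).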
